A study of Homo sapiens with 2 samples.

Results

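The genes described here encode the translation initiation factors, and they were followed in A549, a cell line from a human lung cancer, harvested 48 h after either a siRNA against MILIP or a control siRNA was transfected. MILIP is a long noncoding RNA that c-Myc induces, and the study asked what its knockdown does to the transcriptome. Each condition is 1 culture of 1 cell line and 1 RNA-seq library, and both received the same lipid transfection reagent, so the comparison rests on 2 libraries. Members were chosen by a rule on their names, with earlier results of these data known. They are the protein-coding genes whose symbol in GENCODE release 29 begins with EIF1, EIF2, EIF3, EIF4, EIF5 or EIF6, without the EIF2AK kinases. The rule found 52 genes among the 60711 rows of the table. Of these, 47 had a mean of at least 1 over both libraries and are described. EIF3CL, EIF4EBP3 and EIF5AL1 were listed at 0 in both libraries, and EIF2S3B and EIF4E1B carried no value.

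Initiation is the step at which a ribosome is placed on the start codon of an mRNA. The eIF2 complex brings the initiator methionyl tRNA to the small ribosomal subunit and is recharged with GTP by eIF2B. The eIF3 complex is a scaffold on the small subunit. The eIF4F complex binds the 5′ cap through eIF4E, bridges to eIF3 through eIF4G and unwinds the leader with eIF4A, while the 4E-BP proteins keep eIF4E away from eIF4G. After scanning and start codon recognition by eIF1, eIF1A and eIF5, the factor eIF5B joins the large subunit. Both eIF2 and eIF4E are the main points at which cells adjust protein synthesis under stress or growth signals.

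The deposited values are reads per gene scaled for each library, and they amount to 20300800 reads for the control and 19460956 for MILIP siRNA. Genes under 20 reads are listed at 0. MILIP itself stood at 29.5 in the control and at 3.22 after its own siRNA (log2 ratio −2.85). In both libraries the 5 markers of epithelial cells and the 5 genes known to be high in A549 were above 0. The latter ranged from 580 to 5237 with control siRNA and from 847 to 9750 with MILIP siRNA. The epithelial markers ranged from 2.65 to 2543 with control siRNA and from 5.93 to 2875 with MILIP siRNA, with EPCAM the lowest in both. Their log2 ratios went from −0.90 for KRT7 to 0.92 for EPCAM. Of 5 markers of other cell types, LYZ, PDGFRB and PECAM1 were listed at 0 in both libraries, and PTPRC and CD3E carried no value. CDKN2A, which A549 has lost, carried no value either. A missing value does not show that a gene is silent. Only 27856 of the 60711 rows carried values, and the elongation factor gene EEF1G carried none. In bulk RNA, fewer cells of a kind and less RNA per cell cannot be told apart.

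Log2 ratios are given as MILIP siRNA over control siRNA with a pseudocount of 1 added to each value, and a gene is called higher or lower here from a 1.5-fold difference. The limits beside a ratio are 95% Clopper-Pearson limits on the ratio without the pseudocount. They cover counting error only. No condition was sampled more than 1 time, so replicate error is unknown, no p-value was computed and none of the differences below has a replicate check.

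The ratios of the initiation factor genes centred below those of all genes, by a small amount. Their median log2 ratio was −0.23, and the median over the 13521 genes that pass the same minimum was −0.03. Of the 47 genes, 37 (78.7%) had a ratio below 0, and 52.2% of all genes did. At least 1.5-fold lower were 8 genes (17%), namely EIF4EBP2, EIF3M, EIF3I, EIF2S1, EIF4G1, EIF2B4, EIF2D and EIF3J. The share of all genes that were as much lower was 13.8%, so the number of lower calls is close to the background. Only EIF3F was at least 1.5-fold higher (2.13%), whereas 11.1% of all genes were. With the nearer counting limit held to 1.5-fold, 5 genes stayed lower and EIF3F stayed higher, and the shares of all genes were 9.22% and 6.73%. At 2-fold 4 genes were lower and none was higher, where 4.62% and 3.48% of all genes were. The factor genes together made up 1.15% of the summed values with control siRNA and 0.97% with MILIP siRNA.

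The genes past 1.5-fold lie apart from one another in the genome, with coordinates given for the whole gene in GENCODE release 29 on GRCh38. The lower genes were EIF4EBP2 at chr10:70404379-70428618 on the + strand, EIF3M at chr11:32583798-32606262 on the + strand, EIF3I at chr1:32221928-32231604 on the + strand, EIF2S1 at chr14:67359997-67386516 on the + strand. They also included EIF4G1 at chr3:184314495-184335358 on the + strand, EIF2B4 at chr2:27364352-27370486 on the − strand, EIF2D at chr1:206571292-206612463 on the − strand and EIF3J at chr15:44537057-44563029 on the + strand. The higher gene was EIF3F at chr11:7970251-8001862 on the + strand.

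The described members had at least 136 and up to 42746 reads in a library. The plot of values by library shows that the members spanned a range from EIF4A1 to EIF4G2. Divided by the length of 1 annotated transcript per gene, the highest levels with control siRNA were those of EIF5A at 628 per kilobase, EIF4G2 at 535, EIF3K at 328, EIF3E at 278 and EIF1 at 256. The order depends on which transcript the cells make, and no replicate tells neighbours in it apart. The lowest were EIF4E3 at 1.53 and EIF4ENIF1 at 3.73.

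Within the eIF2 complex the α subunit stood apart from its partners. EIF2S1 encodes this subunit, which the stress kinases phosphorylate to slow initiation. Its value went from 223 in the control library to 103 after MILIP siRNA, which is a log2 ratio of −1.10 (limits −1.19 to −1.03). The γ subunit gene EIF2S3, whose product holds GTP and the initiator tRNA, had values of 473 and 333, a log2 ratio of −0.50 (limits −0.55 to −0.46). EIF2S2, for the β subunit, had 238 and 209.8, a log2 ratio of −0.18 (limits −0.24 to −0.12). Ratios and limits of these subunit genes were all below 0 and did not overlap each other, and EIF2S1 alone was past 1.5-fold.

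Of the alternative carriers of initiator or other tRNAs, EIF2D was lower and EIF2A was within 1.5-fold. EIF2D, linked to reinitiation and the recycling of small subunits, had values of 39.2 and 24.2, a log2 ratio of −0.67 (limits −0.86 to −0.53). EIF2A had 108 and 116, a log2 ratio of 0.10 (limits 0.01 to 0.18). Over these 5 genes of eIF2 and the carriers the median was −0.50.

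In eIF2B, the exchange factor that reloads eIF2, only the δ subunit gene was past 1.5-fold. EIF2B4, for this regulatory subunit, had values of 56.2 and 34.7, a log2 ratio of −0.68 (limits −0.83 to −0.56). EIF2B5, for the catalytic ε subunit, had 49.0 and 47.1, and EIF2B1 had 59.2 and 59.8. Their limits hold 0. EIF2B2 was the highest of the complex with 33.2 and 37.2, a log2 ratio of 0.16 (limits 0.01 to 0.32), and EIF2B3 had a log2 ratio of −0.29 (limits −0.49 to −0.12). The median of the 5 genes was −0.06, close to that of all genes. With the GC trend removed (described below) it was −0.15, beside −0.03 for all genes and −0.16 for the described members.

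The eIF3 complex held the widest range of any subgroup, from the second lowest ratio of the family to its highest. Of 14 genes, 13 were described, 11 of them with a ratio below 0, and their median was −0.23. EIF3M, a subunit with a PCI domain from the core octamer, went from 180.4 in the control library to 56.6 after MILIP siRNA, which is a log2 ratio of −1.66 (limits −1.77 to −1.58). Counted from the lowest of all 13521 ratios, it was at place 123.

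EIF3I, a WD-repeat subunit that binds EIF3B and EIF3G, had values of 201.5 and 78.4, a log2 ratio of −1.35 (limits −1.45 to −1.28). Its partners did not share this difference. EIF3B had 312 and 348, a log2 ratio of 0.16 (limits 0.11 to 0.21), and EIF3G had 87.9 and 79.7, a log2 ratio of −0.14 (limits −0.24 to −0.04). EIF3J, a loosely bound subunit near the decoding site, had 177 and 114, a log2 ratio of −0.63 (limits −0.71 to −0.56).

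EIF3F was the exception in the other direction. It encodes one of the 2 subunits with an MPN domain and went from 115.6 in the control library to 203 after MILIP siRNA, which is a log2 ratio of 0.80 (limits 0.74 to 0.88). EIF3H, for the other MPN subunit, had 214 and 211, and its limits of −0.08 and 0.04 hold 0. With the GC trend removed its log2 ratio was 0.13. Among the 8 subunits of the octamer (EIF3A, EIF3C, EIF3E, EIF3F, EIF3H, EIF3K, EIF3L and EIF3M) 7 had a ratio below 0 and the median was −0.22. Of these, EIF3A, the largest subunit, had 561 and 422, a log2 ratio of −0.41 (limits −0.45 to −0.37), and EIF3E had 429 and 339.9. EIF3K and EIF3L lay nearer 0, at log2 ratios of −0.04 and −0.11. EIF3D, a subunit that can bind the cap, was at −0.23.

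Of the cap-binding complex, only the scaffold EIF4G1 was past 1.5-fold. It went from 551 in the control library to 295 after MILIP siRNA, which is a log2 ratio of −0.90 (limits −0.95 to −0.86). Its paralog EIF4G3 had 80.4 and 74.7, a log2 ratio of −0.10 (limits −0.21 to −0.00), so the ratios of the pair differed by −0.80 on the log2 scale. EIF4G2, also called DAP5, lacks the eIF4E-binding region and serves cap-independent initiation. It was the most abundant member, with 2141 and 1615, a log2 ratio of −0.41 (limits −0.43 to −0.39).

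The cap-binding proteins themselves differed less. EIF4E had values of 122 and 95.8, a log2 ratio of −0.35 (limits −0.44 to −0.26). EIF4E2, a cap-binding repressor also called 4EHP, had 85.2 and 93.2, a log2 ratio of 0.13 (limits 0.03 to 0.22), and was the highest of the subgroup. The limits of these paralogs do not overlap. With the GC trend removed EIF4E was at −0.16 and EIF4E2 at 0.03, and EIF4B at 0.21 was then the highest of the subgroup. EIF4E3 had 15.2 and 13.9, and its limits of −0.37 and 0.11 overlap those of EIF4E. Its log2 ratio went from −0.12 to 0.12 with the GC trend removed.

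Among the helicases and their cofactors no gene was past 1.5-fold. EIF4A2 had values of 159 and 139.7, a log2 ratio of −0.19 (limits −0.26 to −0.11). EIF4A3, which belongs to the exon junction complex, had 211 and 203. EIF4H and EIF4B, which stimulate eIF4A, had log2 ratios of −0.02 and 0.10 at values of 562 and 510.2 with control siRNA. The 11 described genes of eIF4F and its cofactors had a median of −0.12.

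The inhibitors of eIF4E held the lowest ratio of the family. EIF4EBP2, which encodes a 4E-BP that competes with eIF4G for eIF4E, went from 136.9 in the control library to 36.2 after MILIP siRNA, from 2733 and 720 reads. Its log2 ratio was −1.89 (limits −2.04 to −1.80), at place 66 from the lowest of all genes. EIF4EBP1, the paralog with the same activity, had 109.6 and 118, a log2 ratio of 0.11 (limits 0.03 to 0.19) that turned to −0.13 with the GC trend removed. The ratios of the paralogs thus differed by 1.999 on the log2 scale, the widest gap among the pairs compared. EIF4ENIF1, which carries eIF4E into the nucleus, had 13.8 and 15.6, and its limits of −0.06 and 0.42 hold 0.

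None of the 6 genes grouped under start codon selection was past 1.5-fold, and 5 had a ratio below 0. EIF1, which keeps the ribosome scanning until a start codon is met, had values of 595 and 570.3, a log2 ratio of −0.06 (limits −0.10 to −0.03). Its close copy EIF1B had 27.9 and 36.2, a log2 ratio of 0.36 (limits 0.21 to 0.54), and was the gene nearest to 1.5-fold on the higher side after EIF3F. EIF5, which triggers GTP hydrolysis by eIF2, had 430.3 and 352, a log2 ratio of −0.29 (limits −0.34 to −0.24).

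EIF1AX, for eIF1A, had values of 281 and 202, a log2 ratio of −0.47 (limits −0.53 to −0.41). Its near-identical copy EIF1AY was at −0.50 (limits −0.71 to −0.34), within the limits of its partner. EIF1AD, placed in this subgroup by its name, which comes from an eIF1A-like domain, was at −0.25. The median of the 6 genes was −0.27.

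The 4 described genes of the subgroup of subunit joining, eIF5A and eIF6 all had ratios below 0, with limits below 0, and a median of −0.36. Limits lay wholly below 0 for 36.7% of all genes and for 66.0% of the described members. EIF5B, the GTPase that joins the subunits, had values of 283 and 212, a log2 ratio of −0.41 (limits −0.47 to −0.36). EIF5A, the hypusine-bearing factor that also serves elongation, had 948 and 762, a log2 ratio of −0.31 (limits −0.35 to −0.28). EIF5A2 had 35.0 and 23.4, a log2 ratio of −0.56 (limits −0.75 to −0.41), and was the gene just outside 1.5-fold on the lower side. EIF6, which keeps free large subunits from joining too early, had 122 and 113, a log2 ratio of −0.12 (limits −0.20 to −0.03).

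Some members shared sequence or exons with other genes, which limits what their counts mean. EIF4A1, the main eIF4A gene in most cells, had values of only 9.52 and 6.84, a log2 ratio of −0.42 (limits −0.81 to −0.15), and 48.6% of its annotated exon bases also belong to other genes on the same strand, the readthrough gene SENP3-EIF4A1 among them. How reads that fall on more than 1 gene were counted is not given in the sources used here. On the same strand EIF3L shared 41.1%, EIF6 17.4%, EIF4A2 10.5% and EIF4E3 6.85% of their exon bases, and EIF4G2 and EIF4E less. The ratios given for these genes carry the same limit. EIF4EBP3, listed at 0, shares 73.4% of its exon bases with the readthrough gene ANKHD1-EIF4EBP3. EIF3C, with 36.0 and 25.4, and EIF3CL, listed at 0, are near-identical copies, as are EIF5A and EIF5AL1. None of the 72 pseudogenes named after the family in the table had a value above 0. For the 8 lower genes and EIF3F no exon base was shared on the same strand. On the opposite strand EIF3M shared 9.99% of its exon bases, EIF3I 6.20%, EIF3J 5.85%, EIF2S1 4.76% and EIF2B4 3.73%. EIF4EBP2, EIF4G1, EIF2D and EIF3F shared none, and whether the counting used strand is not given in the sources used here.

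The siRNA named by the study for these libraries, si-MILIP.2, can also pair with other transcripts through bases 2 to 8 of its guide strand, for which the matching letters in a target are GACCCTA. The MILIP transcript holds this run 1 time. The search was made on the sense strand of 1 GENCODE transcript per gene and was chosen with earlier results of these data known. Among the described members, only EIF2S1 (2.13%) holds the run in its 3′ UTR, against 4.82% of the 12113 genes with an annotated 3′ UTR, and it does so at 2 places. EIF3I, EIF2B2 and EIF3G (6.38%) hold it in coding sequence alone, against 6.27% of genes. The matches are shown with their surroundings, since they are the only runs of these letters in the members' regions searched. Capitals mark the run. Coordinates are GRCh38, and each is read on the strand of its gene.
EIF2S1, 3′ UTR, chr14:67383899-67383928, + strand: tttaatactaaGACCCTAattcttttatct
EIF2S1, 3′ UTR, chr14:67385099-67385128, + strand: ttttgtaaattGACCCTAgccagagaatag
EIF3I, coding sequence across an exon junction, chr1:32222614-32224046, + strand: ctgtggccaagGACCCTAtcgtcaatgtat
EIF2B2, coding sequence, chr14:75003090-75003119, + strand: atggctcgggaGACCCTAgggttgctgcgc
EIF3G, coding sequence, chr19:10116947-10116976, − strand: aggaggaggagGACCCTAtgaacaaactca

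Of these 4 genes, EIF2S1 and EIF3I were among the lower members, at log2 ratios of −1.10 and −1.35, whereas EIF3G was at −0.14 and EIF2B2 at 0.16. The first EIF2S1 match is followed by an A and the other by a G. EIF4EBP2, EIF3M, EIF4G1, EIF2B4, EIF2D and EIF3J hold no match in the 3′ UTR or coding sequence of the transcript searched. Without the 4 genes with a match, 43 members remained, 6 of them at least 1.5-fold lower. The share of all genes, with or without a match, that were as much lower was 13.8%. That share was not computed for genes without a match alone. The median of the 43 members was −0.23, where the 10770 genes of the table without a match had a median of 0.01. Pairing through these letters, pairing outside them and other effects of the siRNA were not tested.

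**Figure D1:**
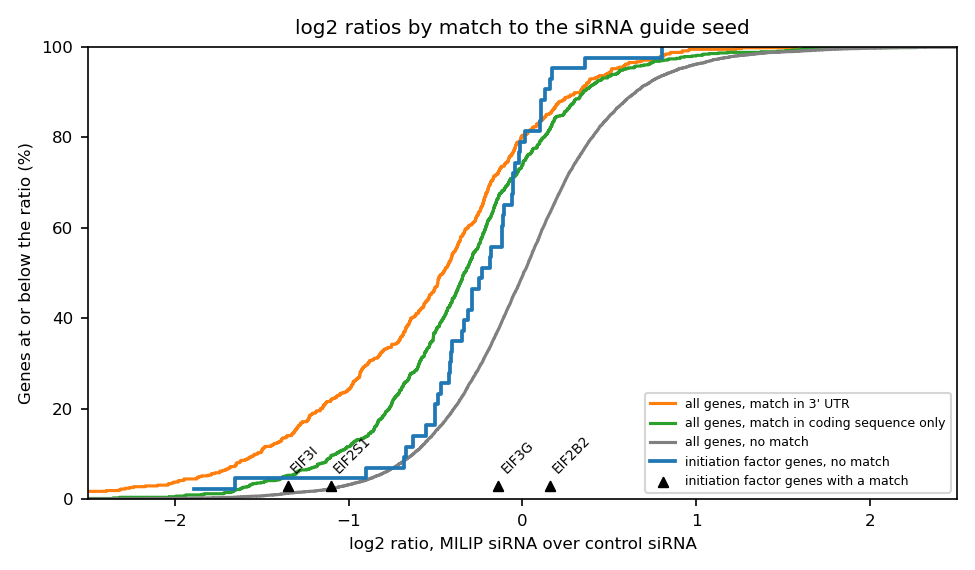
Lines give the percentage of genes (y axis) at or below each log2 ratio of MILIP siRNA over control siRNA (x axis), for all genes with a match to the guide seed in the 3′ UTR (median −0.46), in coding sequence alone (median −0.34) or in neither (median 0.01), and for the 43 initiation factor genes without a match (median −0.23). Triangles mark the 4 members with a match, from EIF3I at −1.35 to EIF2B2 at 0.16.

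The GC content of transcripts moved with the ratios across all genes. From the fifth of genes with the lowest GC content to the fifth with the highest, the median log2 ratio went from −0.21 to 0.18. Transcripts of the described members had a median GC content of 45.8%, and those of all genes 49.2%. With the trend removed, the median of the members was −0.16, beside −0.03 for all genes. Again 8 members were lower and 1 was higher, where 12.9% and 10.1% of all genes were. Of the 8 lower members, 7 were the same. EIF3J came to −0.45 and no longer passed 1.5-fold, and EIF3C came to −0.61. EIF4EBP2 was at −1.73, EIF3M at −1.41, EIF3I at −1.36, EIF4G1 at −1.02 and EIF3F at 0.95. All of these were still past 1.5-fold. The part of GC content in the ratios was not tested.

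Because MILIP acts downstream of c-Myc in the study, the promoters were searched for the canonical E-box CACGTG, the letters that c-Myc and Max bind. RefSeq promoter windows, from 250 bases before to 50 bases after each annotated start, were found for 40 of the 47 described genes. The E-box is a palindrome, so both strands read alike. It was present in at least 1 window of 10 genes (25%), against 12.6% of the 9999 expressed genes (mean of 1 or more) that have a window, and in 18.2% of the members' windows against 9.30% of the 14641 windows of these expressed genes. The 10 genes with an E-box had a median log2 ratio of −0.05 and the 30 genes without one a median of −0.30. Over all genes with a window the order was the other way, with a median of −0.08 for the 1265 with an E-box and −0.02 for the 8736 without. Of the genes past 1.5-fold, EIF3F and EIF4G1 carry an E-box, one with the highest ratio of the family and the other among the lower genes. Their sequences upstream of the start are printed in GRCh38.p14 from RefSeq, 250 bases each, with the E-boxes in capitals.
EIF3F, chr11:7987087-7987336, + strand: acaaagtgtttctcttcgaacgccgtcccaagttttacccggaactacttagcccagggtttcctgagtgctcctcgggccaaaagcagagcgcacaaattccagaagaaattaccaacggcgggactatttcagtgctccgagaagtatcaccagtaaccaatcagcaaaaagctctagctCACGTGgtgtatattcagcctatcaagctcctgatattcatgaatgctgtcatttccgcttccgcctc
EIF4G1, chr3:184314356-184314605, + strand: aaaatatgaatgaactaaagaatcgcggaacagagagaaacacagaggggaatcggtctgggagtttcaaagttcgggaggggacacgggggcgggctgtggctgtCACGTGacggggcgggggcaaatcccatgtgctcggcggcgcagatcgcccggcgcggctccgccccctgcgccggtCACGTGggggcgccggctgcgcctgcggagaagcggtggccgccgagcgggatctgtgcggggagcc

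The RefSeq start of EIF3F lies inside the longer GENCODE gene. Its E-box begins 68 bases before that start, and those of EIF4G1 begin 144 and 67 bases before it. A second feature of many genes of the translation machinery is a 5′ terminal oligopyrimidine tract, which ties their translation to growth signals. A C at the annotated start followed by 4 bases that are each C or T was found for 9 of the 40 genes (22.5%), EIF3F, EIF3M and EIF4B among them, and for 7.45% of these expressed genes. The 9 genes had a median log2 ratio of −0.19 and the other 31 genes a median of −0.29. The medians over all genes with a window were 0.01 with this start and −0.03 without it. Both features are matches of letters and do not show that a factor binds or that a tract is used.

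Other genes of the pathway, taken from lists drawn up with the members, were compared in the same way. Of the 4 eIF2 kinases, EIF2AK3, which encodes PERK of the endoplasmic reticulum, had values of 30.6 and 11.4, a log2 ratio of −1.35 (limits −1.65 to −1.20). EIF2AK4, for the amino acid sensor GCN2, had 61.8 and 26.7, a log2 ratio of −1.18 (limits −1.36 to −1.06). EIF2AK2, for the RNA sensor PKR, was at −0.51 and EIF2AK1, for the heme-regulated kinase, at −0.01. EIF2AK1 is the gene of this list that holds the run GACCCTA, in its 3′ UTR. The phosphatase subunit PPP1R15A, which reverses eIF2 phosphorylation, had 79.3 and 115, a log2 ratio of 0.53 (limits 0.44 to 0.63). The related subunit gene PPP1R15B went the other way, at −0.27 (limits −0.36 to −0.19). PPP1CB was the highest of the list at 0.57, whereas PPP1CA and PPP1CC were at −0.01 and −0.03. Over the 11 genes of this list 2 were lower (18.2%), none was higher and the median was −0.03. Of all genes, 13.8% were lower and 11.1% higher.

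Of 21 accessory initiation factors without the EIF name, 5 were at least 1.5-fold lower (23.8%) and 4 higher (19.0%). The shares of all genes were 13.8% and 11.1%, and the median of the list was −0.24. DHX29, a helicase for structured leaders, was the lowest, with 91.7 and 28.5, a log2 ratio of −1.65 (limits −1.82 to −1.55). ABCF1 was at −0.94, NCBP1, the large subunit of the nuclear cap-binding complex, at −0.86, PABPC4 at −0.85 and BZW2 at −0.59. The higher genes were CTIF at 1.05, MKNK2, a kinase of eIF4E, at 0.69, PDCD4, an inhibitor of eIF4A, at 0.64 and DENR, which acts in reinitiation, at 0.59. DHX29 holds the run GACCCTA 2 times in its coding sequence. PABPC4 and BZW1 hold it there 1 time each, and BZW1 was within 1.5-fold at −0.39.

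Of 15 factors for elongation, termination and recycling, 14 had a value, and their median was −0.20. Among these 14, 2 were lower (14.3%) and 1 was higher (7.14%), beside 13.8% and 11.1% of all genes. ABCE1, which splits ribosomes after termination, had values of 156 and 49.3, a log2 ratio of −1.64 (limits −1.77 to −1.56), and holds the run GACCCTA in its 3′ UTR. DOHH, at −0.30, and EEFSEC, at −0.45, hold it in coding sequence and were within 1.5-fold. GSPT1, for the release factor eRF3a, was at −0.92, and EEF1A2 at 0.94 was the higher gene. The main elongation factors EEF1A1 and EEF2 had log2 ratios of −0.19 and 0.35.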

How the data were processed

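RNA from 1 control siRNA and 1 MILIP siRNA library of A549 cells was used. The deposited values form a signal per gene, named as read counts in the header, in which 100% of values above 0 were whole multiples (tolerance 0.02) of a step, 0.0501 in the control library and 0.0503 in the other, so each was taken as reads scaled by the authors. Values sum to 1016809 and 978499. The submitters' processing notes name hg38, TopHat2 2.0.12 and HTSeq 0.6.1, with no roles. The annotation, strand use and scaling method are not given in the sources used here. The authors' fold changes, p-values, q-values and calls were not used. With 1 library per condition no count test could be made.

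Log2 ratios took a pseudocount of 1 over genes with a mean of at least 1, and calls a 1.5-fold threshold. Counting limits (95%, Clopper-Pearson) came from the numbers of steps. Symbols, exons and transcripts were those of GENCODE release 29 (GRCh38), which held 56868 of 60711 identifiers, with 1 transcript per gene, by APPRIS rank and then by coding length. Of the 13521 genes, 99.1% had a GC content, and the trend was removed as the median of 50 bins. Promoter windows were RefSeq's (GRCh38.p14). The rule for naming with both values and limits took members past 1.5-fold, the highest and lowest of each subgroup, and fixed paralog pairs. Further members given in this way, such as EIF2S2, EIF3A and EIF5B, were chosen after their values were seen. EEF1G carried no value. The members, lists and searches were chosen with earlier results of these data known. Alternatives were scaling by the median of ratios or to the summed values, a pseudocount of 0.1, no filter, a mean of at least 5, a 2-fold threshold, the nearer counting limit, removal of the GC trend, leaving out near-identical copies and the mean. Leaving out members with a seed match or shared exons was chosen after seeing the data. The calculations were tested on simulated data. Calculations ran in Python 3.11.15 with scipy 1.17.1, pandas 2.3.3 and numpy 2.4.6, and figures in matplotlib 3.10.9.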

Additional observations from a re-analysis of the deposited data

How the results depend on the processing

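No paired analysis was possible because there is a single library on either side of the comparison, so none could be left out either. The 8 lower members had ratios below 0 and EIF3F stayed at least 1.5-fold higher under the pseudocount of 0.1, both scalings, both filters and removal of the GC trend. Scaling to the summed values left 7 of the 47 members lower, without EIF3J, beside 1628 of the 13521 genes. At 2-fold, 4 members were lower and 0 were higher, beside 625 and 471 of all genes. By the nearer counting limit 5 members were lower, beside 9.22% of all genes. Among the 20 members whose exons overlap no other gene 3 were lower. The share of all genes at 1.5-fold, whatever their overlap, was 13.8%. The median of all members lay between −0.16 and −0.30 under the alternatives that give one, which leaves out the 2-fold threshold and the nearer counting limit. Ratios near 0 turned above it for EIF3K, at 0.01, EIF4H, at 0.04, and EIF3H, at 0.03, after scaling to the summed values, as did EIF4A3 at 0.00087. The median of eIF2 and its alternative carriers was −0.45 after scaling to the summed values and −0.31 with the GC trend removed. That of the joining factors, eIF5A and eIF6 was −0.31 and −0.30. That of the eIF4E inhibitors went from 0.11 to −0.13 with the GC trend removed, since EIF4EBP1 came to −0.13. The cause of these shifts beyond the correction itself was not tested. Depth limits EIF4A1, EIF4E3 and EIF4ENIF1 most, with 136 to 311 reads in a library.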
